A study of Mus musculus with 24 samples.

Results

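MYT1L sites in the prefrontal cortex of adult wild-type mice (WT) were compared with those of adults that carry 1 mutant Myt1l allele (HET). A site was 1 interval of a deposited list, a shared site overlapped a site of the other list by at least 1 bp, and a target was a protein-coding gene that had a site no farther than 5 kb from any of its transcription starts. The comparison covered 89082 of the 144257 sites of the series, 32145 in adult WT and 56937 in adult HET, and 7835 of 21938 protein-coding genes that were targets in at least 1 genotype. Of these genes 1707 were targets in both and are called kept, 2697 were targets in WT only and are called lost, and 3431 were targets in HET only and are called new.

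The assay was CUT&RUN: an antibody against MYT1L tethers a nuclease in permeable cells, and the short fragments it cuts free next to the protein are sequenced. Both adult groups were dissociated prefrontal cortex of mice 3 months old, of strain C57BL/6J by the labels and of unstated sex, with 3 MYT1L libraries and 3 IgG libraries each, all of sequencing run 2. Per the study's methods the mutation is a germline frameshift deletion in the first coding exon of Myt1l, made in C57BL/6N zygotes, and HET animals keep 1 intact copy and can make a truncated protein that stays outside the nucleus. In each genotype replicates 2 and 3 are titled Myt2l and Myt3l, and they were counted as MYT1L libraries on the ground of their description, which points to the Myt1l list. Each deposited list was merged over the libraries of its group and gives only a start and an end per site. There was thus no replicate error, no height or score per site, no known depth and no test of genotype, and the exact 95% intervals given here cover counting error within a list only. Genotype cannot be told apart from differences in depth or library quality between the groups, and the genotype itself and the tissue could not be checked from site positions. "Lost" and "new" describe list membership.

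MYT1L is a zinc finger factor made almost exclusively by neurons, and MYT1 and ST18 are its relatives. It recognises the core word AAAGTT and recruits co-repressors such as the SIN3-HDAC complex, and it is known for holding down Notch and Wnt pathway genes and programmes of other cell types while neurons mature. Loss of 1 MYT1L copy in people causes a neurodevelopmental disorder with autism and intellectual disability. In mature cortex, enhancers and promoters that respond to neuronal activity carry AP-1, CRE and EGR sites, bound by FOS and JUN, CREB and EGR proteins.

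Sequences of 11 sites are printed as examples. They were read from GRCm38.p6 (RefSeq), the same assembly as mm10, on the plus strand from 5′ to 3′, and were chosen after their values were seen. For each gene the candidate site with the most marked words was printed. The words in them therefore do not show how often sites hold such words. Capitals mark 6 words that were searched on both strands, so a match on the minus strand appears as the reverse complement. They are AAAGTT, the core that MYT1L recognises, TTGGCA, a word of nuclear factor I, TGACTC, the AP-1 word, GTGGGC, the EGR word, CAGATG, an E-box of neurogenic factors, and TGACGT, the CRE word. Words can overlap, as the EGR word and the E-box do by 1 letter at Gadd45g, and as the CRE word does with its own reverse complement at Vgf. Of all genome windows reaching 75 bp to each side of a midpoint, 12.1% held the MYT1L core, 7.48% the nuclear factor I word, 7.50% the AP-1 word, 5.09% the EGR word, 11.5% the E-box and 1.09% the CRE word, so a single match is common for all but the last. The first 6 sequences are the stretch common to the WT and the HET site near Gadd45g, a stress-response gene induced by activity, Plk2, a kinase of synaptic scaling, Npas4, an activity-dependent transcription factor, Hes7, a Notch-driven repressor, Vgf, a neuropeptide precursor, and Arid1a, a subunit of the BAF chromatin remodeller.
Gadd45g (chr13:51848986-51849193): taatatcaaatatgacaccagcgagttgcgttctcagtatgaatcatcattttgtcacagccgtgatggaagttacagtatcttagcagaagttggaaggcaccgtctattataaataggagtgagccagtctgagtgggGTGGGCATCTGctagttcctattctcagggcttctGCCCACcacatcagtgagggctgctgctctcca
Plk2 (chr13:110394260-110394408): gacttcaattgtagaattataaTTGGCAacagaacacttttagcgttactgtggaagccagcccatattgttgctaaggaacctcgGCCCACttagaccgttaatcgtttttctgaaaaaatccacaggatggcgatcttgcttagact
Npas4 (chr19:4992993-4993185): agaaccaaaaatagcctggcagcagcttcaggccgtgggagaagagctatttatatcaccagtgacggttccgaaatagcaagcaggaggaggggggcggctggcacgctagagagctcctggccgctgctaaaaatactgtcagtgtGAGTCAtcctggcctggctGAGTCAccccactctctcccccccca
Hes7 (chr11:69124333-69124455): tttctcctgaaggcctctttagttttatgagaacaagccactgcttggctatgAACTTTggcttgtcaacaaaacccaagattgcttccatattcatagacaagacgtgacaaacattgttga
Vgf (chr5:137030154-137030255): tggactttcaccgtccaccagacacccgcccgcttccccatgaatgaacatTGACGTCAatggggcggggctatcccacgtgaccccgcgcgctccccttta
Arid1a (chr4:133757452-133757744): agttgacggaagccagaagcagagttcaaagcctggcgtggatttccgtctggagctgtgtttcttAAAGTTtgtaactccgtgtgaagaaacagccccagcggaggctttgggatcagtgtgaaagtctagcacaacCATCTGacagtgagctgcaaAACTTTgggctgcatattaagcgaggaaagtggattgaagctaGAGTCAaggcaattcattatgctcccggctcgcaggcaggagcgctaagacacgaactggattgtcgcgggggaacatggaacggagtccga

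The next 2 are sites of the WT list that no HET site overlapped, near Hes1, the Notch effector that holds back neurogenesis, and Zeb2, a zinc finger repressor. The Hes1 sequence is the first 300 bases of a site of 540 bp. Its marked CRE word lies over 75 bp from the midpoint of the site, and the AAAGTT counted near the midpoint is not within the printed stretch. The marked E-box of Zeb2 also lies over 75 bp from the midpoint of its site.
Hes1 (chr16:30064952-30065251): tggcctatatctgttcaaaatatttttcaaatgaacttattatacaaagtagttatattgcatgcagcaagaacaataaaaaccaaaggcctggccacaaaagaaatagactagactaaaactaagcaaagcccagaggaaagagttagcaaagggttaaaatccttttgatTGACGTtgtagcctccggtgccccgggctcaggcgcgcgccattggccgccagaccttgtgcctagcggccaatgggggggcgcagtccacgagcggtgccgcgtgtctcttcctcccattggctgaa
Zeb2 (chr2:45113916-45114174): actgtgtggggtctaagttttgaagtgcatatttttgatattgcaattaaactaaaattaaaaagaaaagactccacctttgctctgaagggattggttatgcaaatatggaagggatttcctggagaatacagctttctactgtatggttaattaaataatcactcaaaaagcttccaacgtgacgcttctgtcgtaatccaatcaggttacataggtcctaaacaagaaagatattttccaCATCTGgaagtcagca

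The last 3 are sites of the HET list that no WT site overlapped, near Fosb, an AP-1 subunit, Ppp3ca, the catalytic subunit of calcineurin, and Pik3r1, a regulatory subunit of PI3 kinase.
Fosb (chr7:19308521-19308744): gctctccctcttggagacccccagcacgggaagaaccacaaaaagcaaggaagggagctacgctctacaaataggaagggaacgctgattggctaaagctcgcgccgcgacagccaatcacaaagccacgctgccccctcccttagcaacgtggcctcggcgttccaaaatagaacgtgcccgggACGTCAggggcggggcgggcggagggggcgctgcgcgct
Ppp3ca (chr3:136675726-136675880): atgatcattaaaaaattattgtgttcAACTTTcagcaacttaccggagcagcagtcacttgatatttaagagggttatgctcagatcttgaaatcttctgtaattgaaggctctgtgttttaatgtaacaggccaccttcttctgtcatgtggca
Pik3r1 (chr13:101693185-101693296): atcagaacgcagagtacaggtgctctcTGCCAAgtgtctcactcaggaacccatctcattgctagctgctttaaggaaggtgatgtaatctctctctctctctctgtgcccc

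Whether MYT1L sites of adult cortex stayed in place in heterozygotes was asked first from the sites. Few did: 2693 of the 32145 WT sites (8.38%, 8.08 to 8.69%) were found in HET and 2790 of the 56937 HET sites (4.90%, 4.72 to 5.08%) in WT. The sites that were found in both lie close by the rule, since an overlap was required, and they were unlike in width. In the 2803 overlapping pairs the median overlap was 133 bp and the midpoints lay a median of 52.5 bp apart. The HET site was the narrower in 2417 pairs (86.2%), with a median of 155 bp against 305 bp in WT, and it lay wholly inside the WT site in 1526 (54.4%). Near misses were few. Of the WT sites without an overlap, 400 (1.36%) had a HET site under 100 bp away and 2062 one at 100 to 1000 bp, while 54.9% had the nearest at 10 to 100 kb.

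Shared sites were the wide ones of each list. The share of WT sites found in HET was 1.93% in the narrowest decile and 27.5% in the widest, which had a median of 450 bp. The HET sites went from 1.98% to 21.5% (20.5 to 22.6%), although their widest decile had a median of only 194 bp. At equal width the HET sites above about 150 bp were shared more often than WT sites: of HET sites of at least 300 bp, 256 of 374 were found in WT (68.4%, 63.5 to 73.1%), while of WT sites of that width 24.3% of 5589 were found in HET. Below 100 bp both lists were shared alike, at 1.96% and 1.86%. Wide sites also offer more bases for an overlap, and the part of width alone was not tested.

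**Figure D1:**
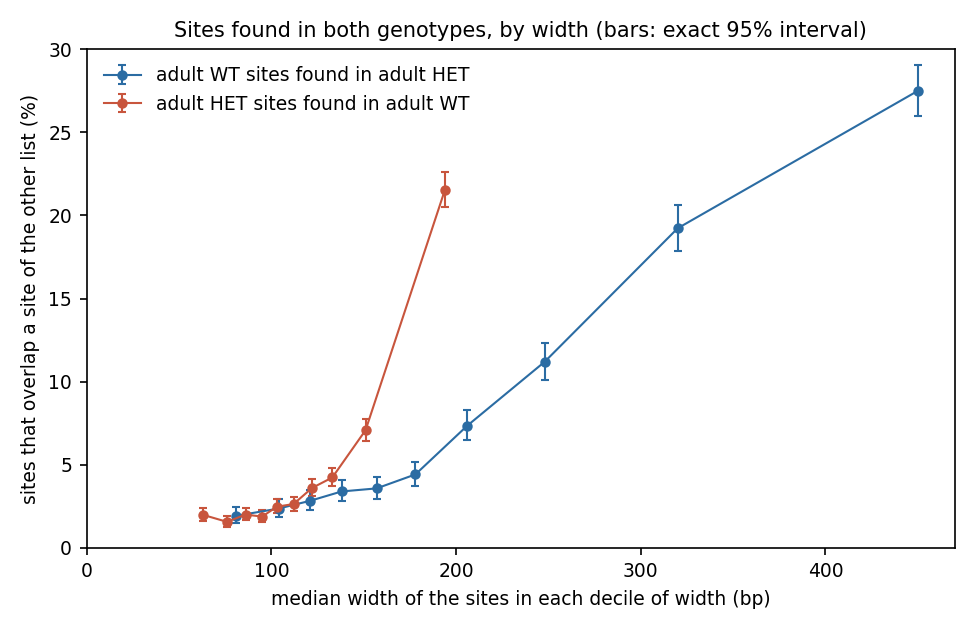
Percentage of sites, with its exact 95% interval, found in the other genotype, against the median width in bp of each decile of width, for adult WT sites (blue) and adult HET sites (red). The 2 curves run together below about 100 bp, near 2%, and end at 27.5% for WT sites with a median of 450 bp and at 21.5% for HET sites with a median of 194 bp.

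Sites at promoters, at sites of newborn cortex and outside repeats were shared more often than other sites, although most shared sites lay in introns (42.2% of shared WT sites) or between genes (39.1%). Within 5 kb of a coding start 12.7% of WT sites (11.8 to 13.7%) and 11.0% of HET sites were shared, against 7.63% and 4.23% of those farther away. At promoters, that is, between 1 kb before and 100 bp after a start, 433 of 2511 WT sites (17.2%) and 452 of 2135 HET sites (21.2%) were shared. Sites were also set against the list of WT prefrontal cortex at birth (P0), a separate set of libraries of sequencing run 1. Of HET sites at a P0 site, 581 of 1950 (29.8%) were shared with adult WT against 4.02% of other HET sites, and of WT sites 17.5% against 7.32%. Sites that were at least 50% repeat sequence were seldom shared, at 3.55% in WT and 1.40% in HET. On the X chromosome 37 of 1165 WT sites (3.18%) were shared, against 8.58% on the autosomes.

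The sites found in HET alone lay closest to the genome in their place along genes. Their midpoints fell in promoters in 3.11% of cases and between genes in 53.5%, where 2.54% and 54.1% of the genome lie. WT-only sites had 7.06% and 46.1%, and shared WT sites 16.1% and 39.1%. A share of 29.1% of the HET-only sites was at least 50% repeat, against 16.7% of WT-only and 6.72% of shared WT sites. Median GC content was 37.7% in HET-only sites, 40.7% in WT-only sites and 42.95% in shared WT sites. Near coding starts the sets differed in the same order, as the site contained the start itself in 47.6% of shared WT sites, 20.1% of WT-only sites and 4.78% of HET-only sites.

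Target genes were compared next. WT sites gave 4404 targets, which was 20.1% of coding genes, and HET sites 5138, which was 23.4%. Kept genes made up 7.78% of coding genes, lost genes 12.3% and new genes 15.6%. The order of WT and HET depended on the definition: within 1 kb of a start the targets numbered 2590 in WT and 1976 in HET, with sites of at least 150 bp alone 3155 and 1328, and with the HET list cut to its widest sites, as many as in WT, 4404 and 3375. Of the WT targets 38.8% (37.3 to 40.2%) were kept, while 19.6% of genes that were no WT target were HET targets. Only 717 of the 1707 kept genes, or 3.27% of coding genes, had a WT and a HET site that overlapped, and the other 990 had different sites in the window of the same gene. The threshold was crowded on both sides. In HET 339 genes had their nearest site at 4.5 to 5 kb and 327 at 5 to 5.5 kb, and in WT 164 and 187. Of the lost genes 487 (18.1%) had a HET site at 5 to 10 kb, and of the new genes 390 (11.4%) a WT site there.

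Genes with more WT sites or wider ones were kept more often. These rates were not split by the window of the gene. Of genes that were no WT target, 16.8% with 1 start position and 40.5% with windows over 30 kb were HET targets. Of the WT targets with 1 site 34.6% were kept, with 2 sites 52.3%, with 3 sites 72.6% and with at least 4 sites 74.2% (49 of 66). By summed width, 25.9% were kept where WT sites covered 150 bp or less and 69.5% (239 of 344) where they covered over 600 bp. By distance, 46.9% were kept where a WT site contained the start and 29.5% where the nearest site lay over 3000 bp away.

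WT targets were HET targets more often than other genes at equal window and in each class of gene. Genes with many starts have a larger window, so the rates were set side by side. Among genes with 1 start position, 36.2% of WT targets and 16.8% of other genes were HET targets, and among genes with windows over 30 kb 63.6% and 40.5%. Among P0 targets the shares were 41.7% and 23.5%, and among other genes 31.8% and 16.95%. With a CpG-rich promoter they were 39.9% and 21.1%, and without one 36.4% and 18.3%. WT targets that were HET targets without an overlapping site were also counted. Their share was taken of all WT targets, including those with an overlapping site. It is thus lowered by construction, and a share close to that of other genes shows no lack of a difference. Targets without an overlapping site made up 20.3% of WT targets with 1 start position, beside the 16.8% above, and 43.5% with windows over 30 kb, beside 40.5%. Among P0 targets they made up 23.2%, beside 23.5%, and among other genes 20.7%, beside 16.95%. With a CpG-rich promoter they made up 21.5%, beside 21.1%, and without one 24.6%, beside 18.3%.

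The classes formed a graded series in their share of younger targets, which the rule did not use. Kept genes with an overlapping site were P0 targets in 79.8% of cases and E18.5 targets in 81.0%, where all coding genes were at 45.95% and 30.03%. Kept genes with different sites had 72.6% and 56.1%, lost genes 66.9% and 52.6%, and new genes 47.9% and 31.1%. New genes thus differed little from all coding genes, while lost genes lay close to the kept genes with different sites. All coding genes include the WT targets, however. Of the genes that were no WT target, 39.8% were P0 targets and 23.0% E18.5 targets, so new genes lay above the genes they were drawn from. CpG-rich promoters were found in 76.0%, 63.9%, 65.7% and 48.2% of these classes, so that here lost genes lay above kept genes with different sites. All coding genes had 49.2%, and genes that were no WT target 44.7%. Gene length did not follow the order either, since kept genes with different sites were the longest, with a median of 29434.5 bp, and kept genes with an overlapping site and new genes had medians of 18812 and 18791 bp. The sites themselves differed too. At kept genes with an overlapping site the nearest HET site lay a median of 84 bp from a start, at kept genes with different sites 1589 bp and at new genes 1964 bp, and the summed HET width had medians of 249, 124 and 115 bp. In WT the nearest site of lost genes lay a median of 716 bp from a start, with 189 bp in sites.

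**Figure D2:**
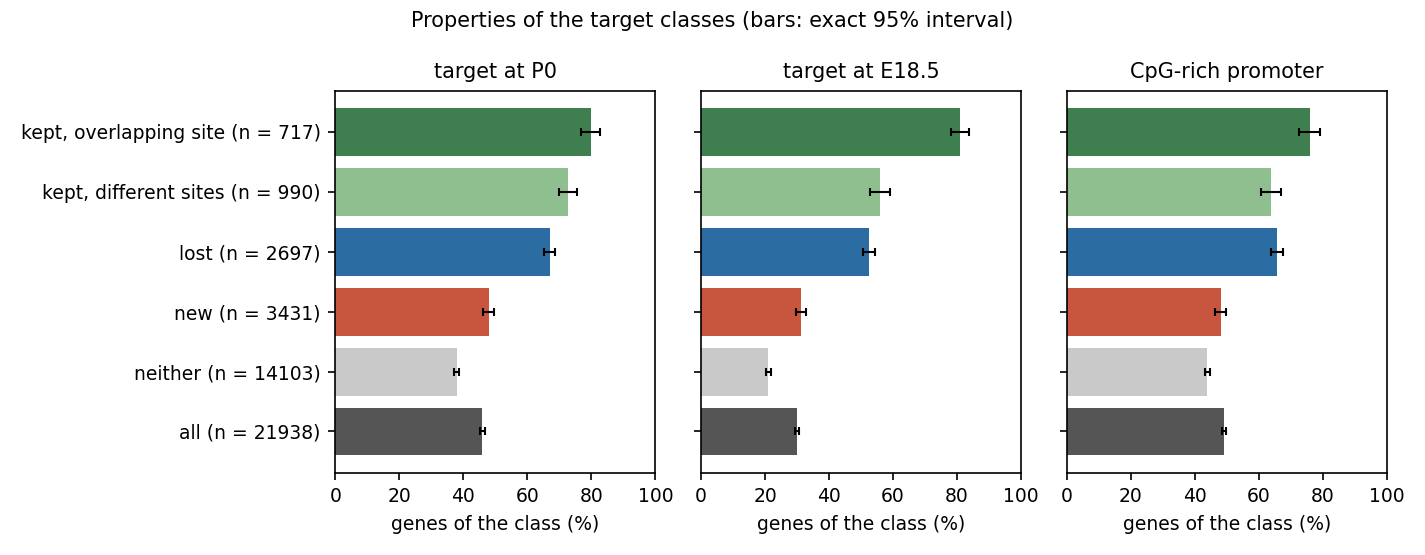
Share of genes (%, with exact 95% interval) in each target class that were MYT1L targets at P0, at E18.5, or had a CpG-rich promoter, with all coding genes in the bottom bar. Kept genes with an overlapping site are highest in each panel (79.8, 81.0 and 76.0%), and new genes (47.9, 31.1 and 48.2%) lie next to all genes (45.95, 30.03 and 49.2%).

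Several of the kept genes with the most bp in sites lie in repeated families, whose reads may be split among copies. The 10 genes were Speer4d, a member of a multicopy testis family, Duxf3, a Dux homeobox gene of a tandem array, Crlf2, a subunit of the TSLP receptor, Zfp524, a zinc finger gene, Tcf4, a basic helix-loop-helix factor of neurons, Cic, the repressor Capicua, the histone genes Hist1h1d and Hist1h4f, Osbpl1a, a lipid transfer protein, and Nmt1, an N-myristoyltransferase. Speer4d had 7 WT sites with 1543 bp and 5 HET sites with 1483 bp. Crlf2 had 3 WT sites, of which a site of 1000 bp overlapped the single HET site of 791 bp in an intron. Tcf4 had 9 WT sites with 1752 bp and 5 HET sites with 780 bp. Cic had a WT site of 685 bp (chromosome 7, 25267764 to 25268448, mm10) that overlapped a HET site of 634 bp (25267822 to 25268455), and a second overlapping pair of 161 and 124 bp at a promoter. In each of the 10 genes the WT sites covered more bp than the HET sites, by 748 against 741 bp at Hist1h1d and 2398 against 721 bp at Osbpl1a. Within 1 kb Duxf3 was lost and Hist1h1d no target, and Osbpl1a was new with only the 5′ end of each gene.

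The lost genes with the most bp in WT sites were Sp110, an interferon-induced nuclear body protein, Trpm8, the cold-sensing channel, Ugt1a1, the enzyme that conjugates bilirubin, Pitpnm2, a phosphatidylinositol transfer protein, Fbxl19, an F-box protein that binds CpG-rich DNA, Nedd4l, a ubiquitin ligase, Fbrs, Scd4, a fatty acid desaturase, Garnl3 and Zeb2. Sp110 had 4 WT sites with 2452 bp, among them 1 of 1139 bp at a promoter, and no HET site. Trpm8 had 11 WT sites with 2128 bp (chromosome 1, 88298239 to 88310166) and Ugt1a1 5 with 2026 bp (88211696 to 88215574), so these neighbouring genes lie in 1 region dense in WT sites. None of these sites overlapped a HET site. Zeb2 had 5 WT sites with 1027 bp, 4 of them at P0 sites, and Fbrs had 580 and 547 bp at P0 sites upstream of a start. The call depended on the annotated starts for 5 of the 10: Sp110, Trpm8, Nedd4l, Garnl3 and Zeb2 had a HET site within 5 kb once the starts of all GENCODE transcripts were used. Sp110, Pitpnm2, Fbrs and Scd4 had one within 10 kb. Pitpnm2 had a shared WT site of 403 bp at 4897 bp from a start, and the HET site that overlapped it lay at 5053 bp, just outside the threshold. Ugt1a1 and Fbxl19 were lost under all 8 alternatives.

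New genes carried less sequence in sites than lost genes, with a median of 115 bp in HET sites against 189 bp in WT sites. The 10 with the most HET bp had 437 to 530 bp, where the lost genes above, picked for the most WT bp, had 1027 to 2452 bp. Among them were Pik3r1 (5 sites, 530 bp), Ppp3ca (4 sites, 468 bp), Mup17, a major urinary protein, Igsf8, an immunoglobulin superfamily protein of synapses, Il31ra, a cytokine receptor, Sox30, a testis factor, Chil4, a chitinase-like protein, Olfr138, an olfactory receptor, and Rps6ka5, the nuclear kinase MSK1. Rps6ka5 had a promoter site of 353 bp at a P0 site and one of 84 bp. It was new under all 8 alternatives. Mup17 and Olfr138 belong to multicopy families, and Sox30 had a single intergenic site of 452 bp. Pik3r1, Ppp3ca, Mup17 and Chil4 had a WT site within 10 kb, and Ppp3ca, Il31ra and Chil4 one within 5 kb of the starts of all GENCODE transcripts. Pik3r1, Igsf8 and Il31ra had no site of at least 150 bp and none within 5 kb of the 5′ end of the gene, and Sox30 and Olfr138 had none within 1 kb.

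All 3 genes of the MYT family were WT targets, and 2 were HET targets. Myt1l (chromosome 12, 29528384 to 29923213, plus strand) had 3 WT sites with 584 bp and 2 HET sites with 233 bp, of which 1 pair overlapped. St18 (chromosome 1, 6487231 to 6860940) had 1 WT site of 151 bp at 2171 bp from a start and 2 HET sites with 355 bp, the nearest at 70 bp, with no overlap. Myt1 (chromosome 2, 181763332 to 181827797) had 1 WT site of 147 bp that contained a start, and its nearest HET site lay 46385 bp away. The 5 WT sites of the family all overlapped P0 sites, as did 2 of the 4 HET sites. St18 was new within 1 kb and with only the 5′ end of each gene. Myt1l was lost with only the 5′ end of each gene or only sites of at least 150 bp.

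MYT1L is known to restrain the Notch pathway, and 8 of its 32 genes were WT targets (interval 11.5 to 43.4%) and 6 HET targets (7.21 to 36.4%), with the shares of all coding genes (20.1% and 23.4%) inside these intervals. The 4 kept genes encode effectors and regulators: Hes5, a Notch effector, with 409 bp in WT and 366 bp in HET, Hes7 with 337 and 123 bp, Numb, an inhibitor of Notch, with 726 and 234 bp, all with overlapping sites, and Maml2, a co-activator, with 232 and 116 bp at different places. The lost genes were Hes1, the ligand-like Dner (154 bp) and the co-activators Maml1 (123 bp) and Maml3 (107 bp), and the new ones Rbpj, the DNA-binding factor of the pathway (120 bp), and Numbl (116 bp). Hes1 (chromosome 16, 30064384 to 30067796) lay just outside the threshold in HET. Its WT site of 540 bp contained the start, and the nearest HET site lay 5026 bp from it, so that Hes1 was kept within 10 kb, with only the 5′ end of each gene, and with the starts of all GENCODE transcripts. That HET site did not overlap the WT site.

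**Figure D3:**
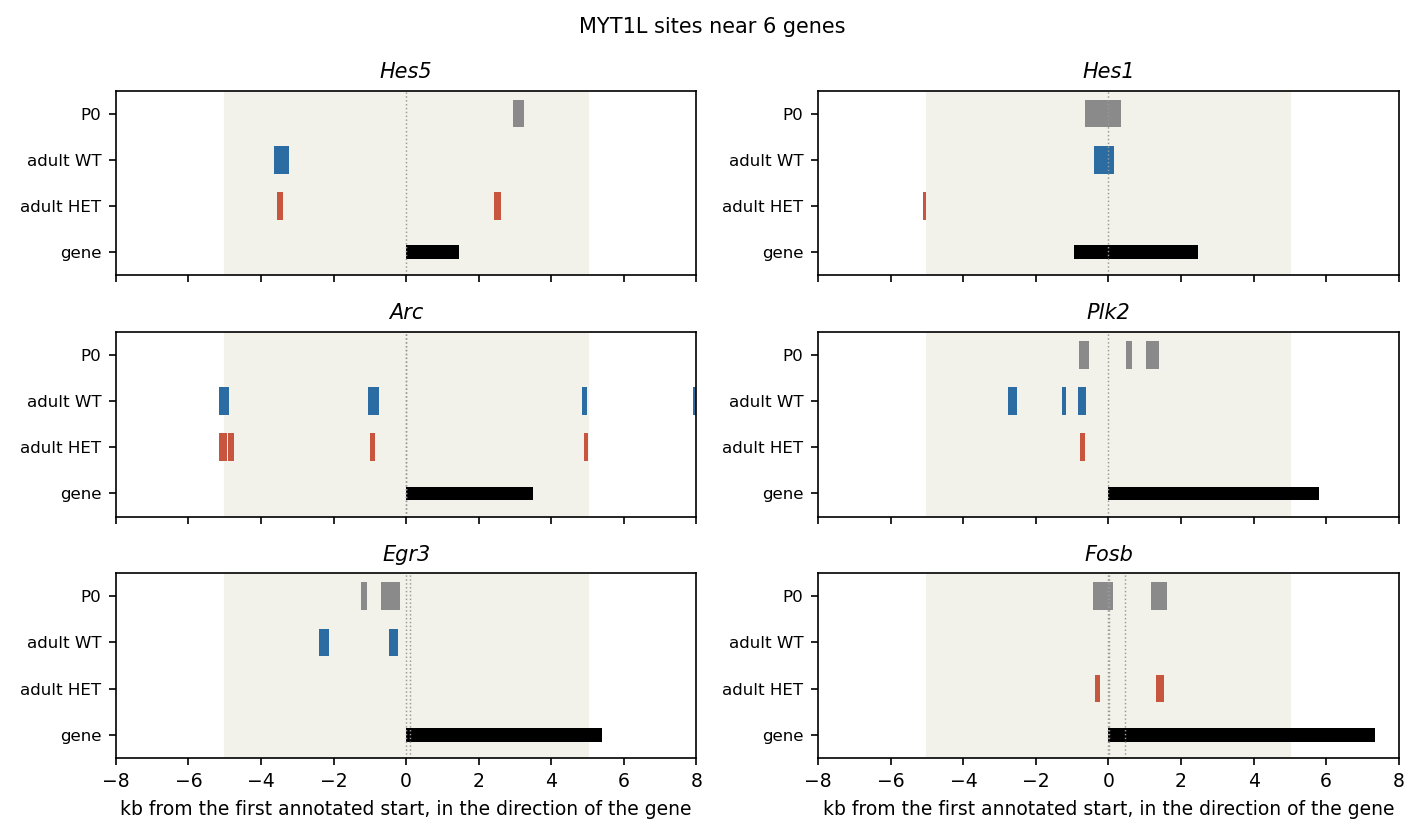
Sites near Hes5, Hes1, Arc, Plk2, Egr3 and Fosb in the P0 (grey), adult WT (blue) and adult HET (red) lists, in kb from the first start of the basic annotation in the direction of the gene, with 5 kb on each side shaded, starts dotted and the gene in black. Arc and Plk2 have HET sites at WT sites, the WT site of 540 bp at Hes1 and both WT sites of Egr3 have no HET counterpart, and Fosb has sites in HET and P0 and none in adult WT.

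Of 61 Wnt pathway genes 10 were WT targets (16.4%, 8.15 to 28.1%) and 7 HET targets (11.5%, 4.74 to 22.2%), beside 20.1% and 23.4% of all coding genes, and 1 gene was kept. Gsk3a, a kinase that marks β-catenin for destruction, had 1092 bp in WT and 388 bp in HET with overlapping sites at its promoter. Its relative Gsk3b had a single WT site of 852 bp over its start and no HET site. The other lost genes with the most bp were Rspo3, a secreted enhancer of Wnt signals (628 bp), Dvl2, a transducer (455 bp), and the receptor Fzd3 (426 bp). The new genes included the nuclear effector Tcf7l2 (164 bp), the receptor Lgr5 (126 bp), the inhibitor Dkk3 (104 bp) and the ligand Wnt5b (96 bp). The counts turned with the starts of all GENCODE transcripts, to 10 WT and 13 HET targets with 5 kept.

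Genes of the co-repressor complexes that MYT1L is known to recruit were targets in 11 of 28 cases in WT and 10 in HET. The shares were 39.3% (21.5 to 59.4%) and 35.7% (18.6 to 55.9%), beside 20.1% and 23.4% of all coding genes. All 5 kept genes had overlapping sites, among them the scaffold Sin3a (1228 bp in WT, 589 bp in HET), the deacetylase Hdac4 (669 and 115 bp), the histone-binding Rbbp4 (398 and 118 bp) and the REST partner Rcor1 (227 and 240 bp). The lost genes with the most bp were Sap130 (398 bp), Hdac9 (343 bp), Sap30 (247 bp) and Suds3 (165 bp), all subunits or partners of SIN3-HDAC complexes.

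Most effector genes of neuronal activity that were WT targets were kept. Of 24 such genes 11 were WT targets and 14 HET targets, and 10 of the 11 WT targets were kept (90.9%, 58.7 to 99.8%), beside 38.8% of all WT targets. In 7 of them sites overlapped: Nrn1, a secreted growth factor of dendrites (502 bp in WT, 260 bp in HET), Gadd45g (680 and 242 bp), Vgf (194 and 236 bp), Scg2, a secretogranin (151 and 447 bp), Plk2 (600 and 149 bp), Homer1, a postsynaptic scaffold (1349 and 96 bp), and Syt4, a vesicle protein (430 and 348 bp). Bdnf, the neurotrophin, had 391 bp in WT and 241 bp in HET at different places within 5 kb of its starts. Cpeb3, a translation regulator of synapses, was the 1 lost gene (331 bp). The new genes Rgs2 (189 bp), Nptx2 (128 bp), Nrp1 (128 bp) and Rgs4 (118 bp) include regulators of G protein signalling and a pentraxin of AMPA receptors. With sites of at least 150 bp alone, 5 of 10 WT targets were kept, and within 1 kb 5 of 8.

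Immediate early genes, the transcription factors and signal proteins induced first, were targets in 13 of 27 cases in WT (48.1%) and 12 in HET (44.4%). Arc, a regulator of AMPA receptor traffic, was the most alike of them, as its 3 WT sites of 135, 288 and 272 bp all overlapped HET sites, which measured 103, 152, 142 and 211 bp. Overlapping sites were also found at Per1 (668 bp in WT, 513 bp in HET), Crem (470 and 266 bp), Npas4 (649 and 198 bp) and Nr4a3 (324 and 79 bp). Egr1 (435 and 546 bp), Fos (210 and 84 bp) and Junb (127 and 144 bp) had different sites. The lost genes were Jun (868 bp), Egr3 (527 bp), Klf10 (338 bp), Dusp1 (164 bp) and Klf4 (119 bp), and the new ones Fosb (371 bp), Ier2 (170 bp), Nr4a1 (76 bp) and Ier5 (62 bp). The 2 sites of Fosb both lay at P0 sites.

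Clock genes had the greatest share of WT targets after the MYT family and the histone genes, 13 of 22 (59.1%), and 10 were HET targets (45.5%). The kept genes included Per1, Arntl, the partner of CLOCK (511 bp in WT, 437 bp in HET), Tef, an output factor (418 and 395 bp), and Cry2, a repressor of the loop (598 and 280 bp), each with an overlapping site. Per3 (844 bp), Nr1d1 (810 bp), Rorb (222 bp) and Nr1d2 (177 bp) were among the 6 lost genes, and Bhlhe41 (268 bp) among the 3 new ones.

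Most lists of neuronal and synaptic genes were above other genes in both genotypes. Genes with an overlapping site made up 15% of vesicle release, 11.5% of postsynaptic scaffold and 7.5% of pan-neuronal genes. They made up 0% of interneuron, potassium channel, glutamate receptor, GABA receptor and axon guidance genes, beside 3.27% of all coding genes. The median window was 20392.5 bp for postsynaptic scaffold and 10037.5 bp for vesicle release genes, beside 10004 bp for all, and its part was not tested. Over the 12 neuronal gene lists the median share of targets was 35.2% in WT and 31.9% in HET, beside 20.1% and 23.4% of all coding genes. GABA receptor, interneuron and clustered protocadherin genes were below all coding genes in WT, and interneuron genes also in HET. Of 40 pan-neuronal genes 21 were WT targets and 17 HET targets, and 10 were kept, 3 of them with an overlapping site. Lost pan-neuronal genes included the RNA-binding Elavl2 (423 bp), Rbfox3, which encodes NeuN (312 bp), and the tubulin Tubb3 (292 bp), and new ones the scaffold Ank3 (264 bp), the kinase Camk2a (211 bp), Nrxn3 (211 bp) and Thy1 (155 bp). Synaptic vesicle release had 17 of 40 WT and 13 HET targets, with 6 of the 9 kept genes at overlapping sites. Of the postsynaptic scaffold genes, 12 of 26 were WT and 13 HET targets. Lost among these were Dlg4, which encodes PSD-95, with 4 WT sites and 869 bp, Shank1 (481 bp) and Shank2 (151 bp).

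The receptors of the main transmitters stood in opposite order. Glutamate receptor genes were WT targets in 11 of 26 cases (42.3%) and HET targets in 7 (26.9%), while GABA receptor genes were WT targets in 2 of 17 (11.8%) and HET targets in 8 (47.1%). No gene of either list had overlapping sites, beside 3.27% of all coding genes, and in lists this small that count does not set them apart. Lost glutamate receptor genes were led by the NMDA subunits Grin2a (414 bp) and Grin1 (292 bp), the metabotropic Grm3 (330 bp) and the kainate subunit Grik5 (328 bp), and new ones by Grin2b (197 bp), Grm8 (180 bp), Gria2 (117 bp) and Grm7 (105 bp). Of the GABA receptor genes, Gabbr1 (334 bp in WT, 148 bp in HET) and Gabra2 (490 and 127 bp) were kept, and the 6 new genes included Gabra6 (392 bp) and Gabrd (151 bp). With sites of at least 150 bp alone the GABA receptor genes had 2 WT and 3 HET targets, and within 1 kb 1 and 2. Both lists are small, and no test of the difference was possible.

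Sodium and calcium channel genes had 9 WT targets of 32 (28.1%, 13.7 to 46.7%) and 10 HET targets (31.2%, 16.1 to 50.01%), with the shares of all coding genes inside these intervals. Tfap2b (chromosome 1, 19208914 to 19238576), a factor of neural crest and kidney, had a WT site of 67 bp and a HET site of 90 bp at different places, and its class changed under 4 of 8 alternatives.

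Genes associated with autism were targets in 21 of 60 cases in WT (35.0%) and 26 in HET (43.3%), and 9 were kept. Tcf4, Sin3a, Zmynd8, a chromatin reader (847 bp in WT, 299 bp in HET), and Myt1l were kept with overlapping sites. The 12 lost genes included the remodeller Chd2 (484 bp) and the SIN3 partner Phf12 (404 bp), and the chromatin proteins Kmt2e (277 bp) and Setd5 (216 bp), the ubiquitin ligase scaffold Cul3 (203 bp) and Grin2b (197 bp) led the 17 new ones. The order turned with sites of at least 150 bp, which gave 19 WT and 12 HET targets, beside 3155 and 1328 over all coding genes. Epilepsy-associated genes had 13 targets of 40 in each genotype, of which 4 were the same genes.

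Histone genes made on replication had the largest WT share of any list with more than 3 genes, 61 of 67 (91.0%), and 47 were HET targets (70.1%). They lie in clusters and share sites, so that the 61 and 47 genes rested on 48 WT and 30 HET sites, 19 of which overlapped in each list. Cytosolic ribosomal protein genes had 29 of 83 WT targets (34.9%) and 19 HET targets (22.9%), with 7 kept, 22 lost and 12 new. The HET count was 3 with sites of at least 150 bp, where the WT count was 23, beside 1328 HET and 3155 WT targets over all coding genes.

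Most lists of other tissues and of sensory receptors had more targets in HET than in WT. Over these lists the median share was 7.36% in WT and 14.7% in HET, both below all coding genes (20.1% and 23.4%). Liver and pancreas genes went the other way, with 6 WT and 5 HET targets of 34, and heart and skeletal muscle genes (5 and 5 of 40) and epithelial genes (4 and 4 of 35) had equal counts. Of 1134 olfactory receptor genes 100 were WT targets (8.82%, 7.2 to 10.6%) and 314 HET targets (27.7%, 25.1 to 30.4%), from 105 WT and 360 HET sites of which 8 were shared. Of 326 vomeronasal receptor genes 24 and 109 were targets, from 26 and 129 sites. Both families lie in clusters of related genes, and how well reads could be assigned there was not tested. Of 35 mesenchymal and skeletal genes 1 was a WT and 8 were HET targets, and of 110 keratin genes 8 and 23. With sites of at least 150 bp alone there were 49 WT and 44 HET olfactory targets, beside 3155 and 1328 targets over all coding genes. That setting kept 18910 of 32145 WT sites and 8944 of 56937 HET sites, so it cut the HET list more. The part of width in the olfactory difference was not tested. The same setting gave 12 and 17 vomeronasal targets, 6 and 2 keratin targets, and 0 and 2 mesenchymal targets. Of the sites near olfactory receptor genes 1 of 105 in WT and 2 of 360 in HET overlapped a P0 site.

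Markers of other brain cells were read beside the shares of all coding genes, 20.1% in WT and 23.4% in HET. Of 21 oligodendrocyte lineage genes 1 was a WT target (4.76%), Mog (202 bp), and 5 were HET targets (23.8%), among them Mbp (148 bp), Myrf (143 bp), Ugt8a (101 bp) and Cspg4 (95 bp). Astrocyte markers had 4 and 5 targets of 20 (20% and 25%), microglia markers 3 and 2 of 22 (13.6% and 9.09%), and endothelial and mural markers 1 and 4 of 25 (4% and 16%). None of the sites near these 4 lists were shared or lay at P0 sites. There were 5 WT and 5 HET sites near astrocyte, 1 and 5 near oligodendrocyte, 3 and 2 near microglia, and 1 and 5 near endothelial and mural markers. Near all coding genes 12.7% of WT and 11.0% of HET sites were shared, and 33.5% and 17.1% lay at P0 sites. The counts are too small to set these lists apart. Neural progenitor genes had 7 WT and 4 HET targets of 30 (23.3% and 13.3%).

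**Figure D4:**
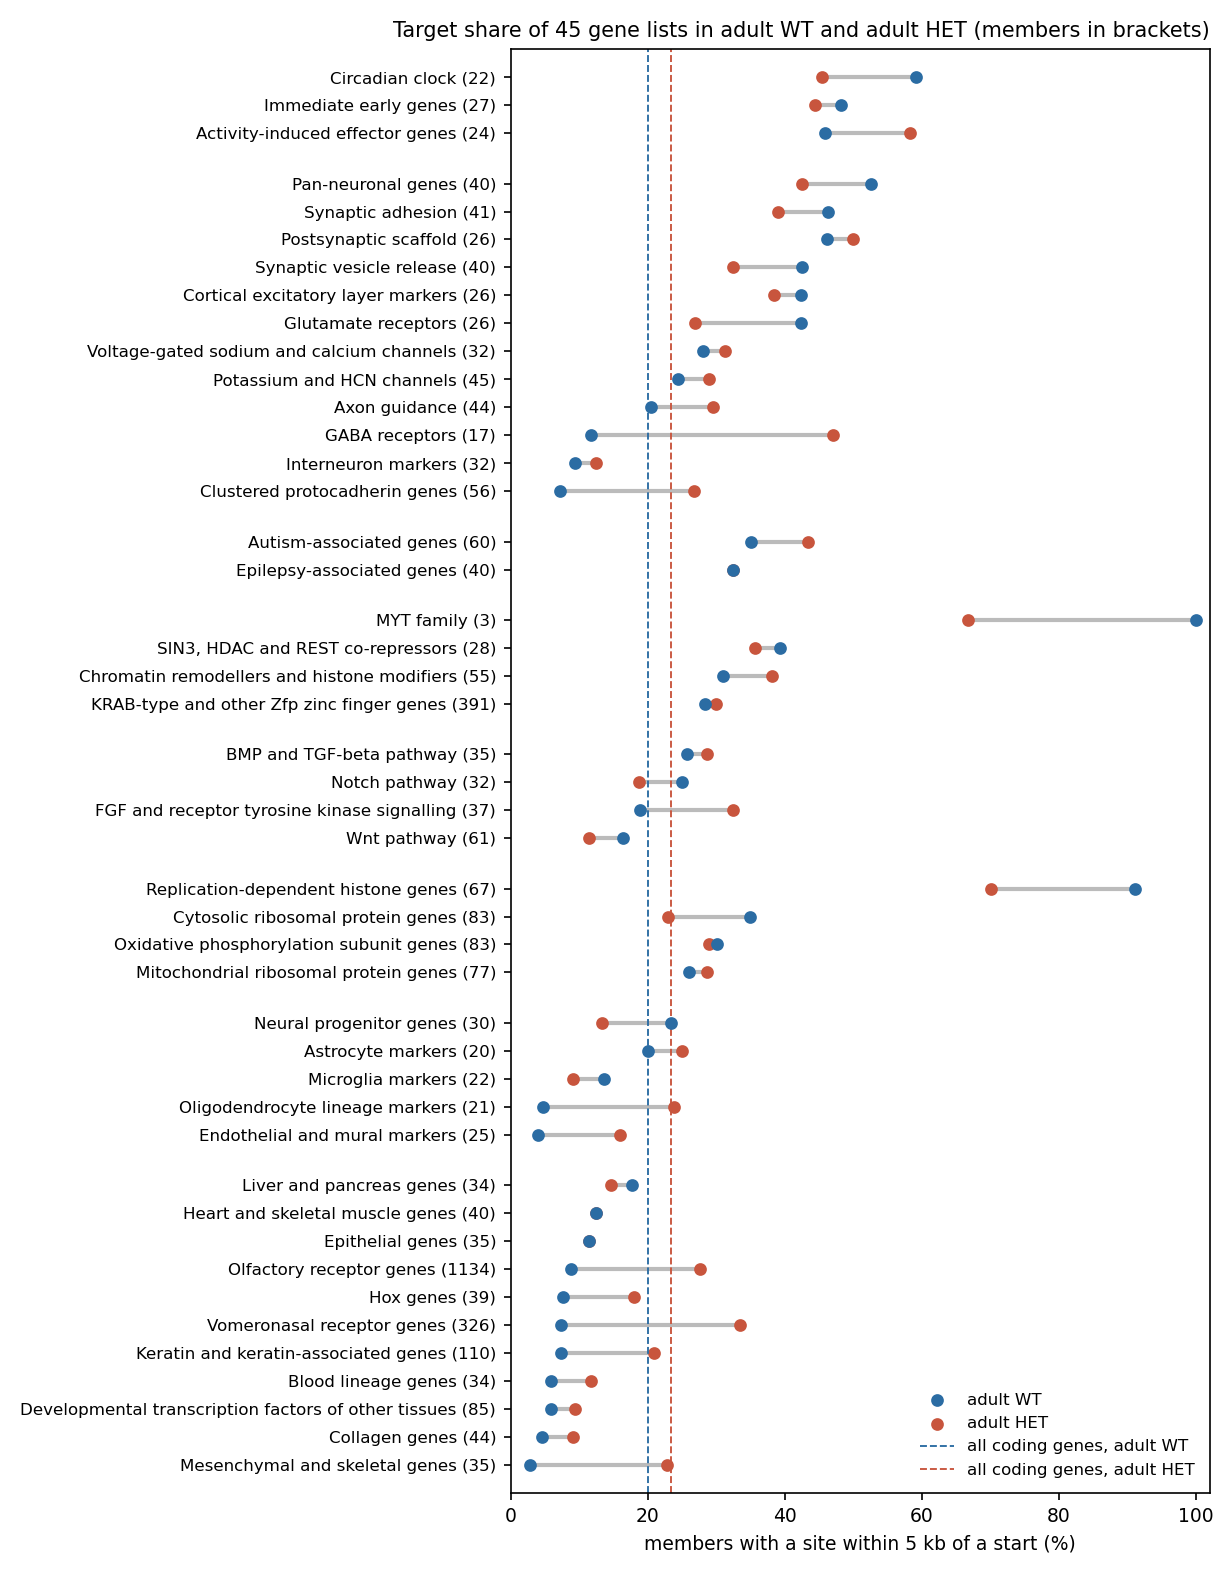
Share of members (%) with a MYT1L site within 5 kb of a start in adult WT (blue) and adult HET (red) for 45 gene lists, with dashed lines at the shares of all coding genes (20.1 and 23.4%). A red point hidden under a blue one means equal shares. Clock, immediate early and pan-neuronal genes lie right of both lines, while GABA receptor, vomeronasal and olfactory receptor genes have their red point far right of the blue one.

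Across the 45 gene lists, 25 had more new than lost targets, 17 more lost than new, and 3 as many of each, beside 3431 new and 2697 lost over all coding genes. This split turned with the width and distance of the sites used: with sites of at least 150 bp 38 lists had more lost than new targets and 5 more new than lost, with the HET list cut to its widest sites 32 and 10, and within 1 kb 27 and 12. The WT count was the higher as reported and under all 8 alternatives for Notch, pan-neuronal, glutamate receptor, vesicle release, cytosolic ribosomal and histone genes, and the HET count for GABA receptor, vomeronasal receptor, mesenchymal, collagen and clustered protocadherin genes.

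Words of transcription factors were compared between shared, WT-only and HET-only sites. Each word was counted within 75 bp of the midpoint, as a share of windows set against genome windows of the same GC content. Farther than 5 kb from coding starts, shared WT sites held the EGR word GTGGGC in 10.2% of windows, 2.12 times the genome share, the AP-1 word TGACTC in 13.7% (1.80 times), the E-box CAGATG in 19.8% (1.69 times), TTGGCA in 11.9% (1.57 times) and AAAGTT in 16.2% (1.35 times). In WT-only sites the ratios were 1.58, 1.37, 1.35, 1.35 and 1.09, and in HET-only sites 1.05, 1.14, 1.03, 1.07 and 1.02. Farther from starts all 5 words thus had the order shared, WT only, HET only, and the HET-only sites were within 1.14 times the genome for each. Against windows 1.5 kb away, AAAGTT had ratios of 1.43, 1.17 and 1.14, so HET-only sites held the core in excess there, nearly as WT-only sites did. The HET-only ratios to those windows were 0.79 for GTGGGC, 1.04 for TGACTC, 0.96 for CAGATG and 1.05 for TTGGCA.

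Near coding starts another word stood out. The CRE word TGACGT, marked in the Vgf sequence, lay in 6.63% (4.78 to 8.92%) of shared WT windows within 5 kb of a start, 4.57 times the genome share, in 3.60% of WT-only windows (2.73 times) and in 2.12% of HET-only windows (1.94 times). For shared WT sites the ratio was 4.44 against windows 1.5 kb away. TGACGT contains a CG pair, which the other 5 words do not. Genome windows were matched on GC content and not on CpG content, and windows 1.5 kb away can lie outside a CpG-rich promoter. The sets also differed in position, as 47.6% of shared WT, 20.1% of WT-only and 4.78% of HET-only sites near starts contained the start. The part of CpG content and of position in this order was not tested. Farther from starts, TGACGT was at 1.18 times the genome in shared WT sites. Within 5 kb of a start, 3 of the 5 words above did not keep the order. GTGGGC had ratios of 0.97, 1.23 and 1.14 in shared WT, WT-only and HET-only sites, CAGATG 0.86, 0.92 and 0.87, and TTGGCA 1.09, 1.15 and 1.00. TGACTC kept it, with 1.20, 1.15 and 1.02. AAAGTT near starts had ratios of 1.54, 1.24 and 1.05 to the genome in shared, WT-only and HET-only sites, but 1.01, 0.99 and 1.13 to windows 1.5 kb away, so no excess over nearby windows was seen in shared or WT-only sites.

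**Figure D5:**
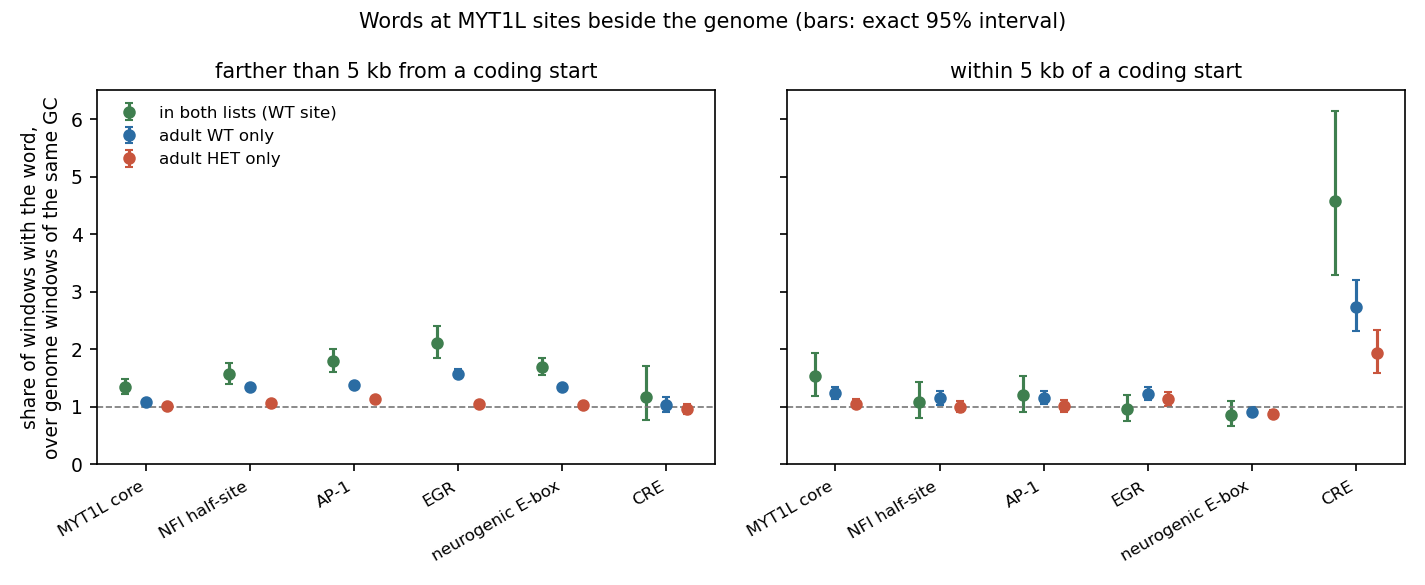
Share of windows with each word over that of genome windows of the same GC content (dashed line at 1), with exact 95% intervals scaled the same way, for WT sites in both lists (green), WT-only (blue) and HET-only sites (red), farther than 5 kb from coding starts (left) and within 5 kb (right). On the left the EGR word reaches 2.12 in shared sites and 1.05 in HET-only sites, and on the right the CRE word reaches 4.57, 2.73 and 1.94.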

How the data were processed

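Per the labels and the study's methods, reads were run through nf-core/cutandrun on build mm10. How peaks were called, at what threshold, and whether IgG served as the control is not given in the sources used here. Each deposited list holds positions, with no score: the authors gave a chromosome, start and end per site after merging the MYT1L libraries of a group. Sequencing depth was unknown, and the 12 IgG libraries are not analysed here.

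Sites were used as deposited. Starts were those of GENCODE release 21 basic transcripts on GRCm38, the same assembly as mm10. A gene had a CpG-rich promoter if any of its starts passed 2 limits in the window of 500 bp on each side. These were an observed over expected CpG ratio of at least 0.6 and a GC fraction of at least 0.5. Repeats were the soft-masked bases of GRCm38.p6. Shares have exact (Clopper-Pearson) 95% intervals. Distances, overlaps and word counts were tested on simulated data. Versions were SciPy 1.17.1, pandas 2.3.3, NumPy 2.4.6 and matplotlib 3.10.9 under Python 3.11.15. The comparison, the gene lists and the words were chosen with earlier results of these data known. Of 3585 listed symbols 3584 matched.

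Named genes were the 10 kept genes with the most bp in sites (the smaller of both lists), the 10 lost genes with the most WT bp and the 10 new genes with the most HET bp, leaving out predicted names, plus Myt1l, Myt1, St18, Hes1 and Tfap2b, and up to 4 members per class of each gene list. Members of some lists beyond these were named after their values were seen. Some genes that the rule would name are not reported here.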

Additional observations from a re-analysis of the deposited data

How the results depend on the processing

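No paired analysis was possible because each list was merged over the libraries of a group, although the labels give both genotypes the same replicate numbers. For the same reason no library could be left out, and no value has a replicate error. The share of WT sites found in HET was 7.56% when 50% of the narrower site had to overlap, 12.9% with gaps of up to 500 bp, 7.28% with sites of at least 150 bp, 7.04% with the widest HET sites, as many as in WT, and 9.08% without sites of at least 50% repeat. The share of HET sites found in WT was 4.39%, 7.27%, 15.5%, 7.24% and 6.21% in the same order. Kept genes numbered 718 within 1 kb, 2922 within 10 kb, 642 with sites of at least 150 bp and 2580 with the starts of all GENCODE transcripts, an alternative chosen after seeing the data. New genes numbered 1258 within 1 kb, 686 with sites of at least 150 bp and 2061 with the widest HET sites. The share of WT targets kept was 27.7% within 1 kb, 47.8% within 10 kb and with the starts of all GENCODE transcripts, 36.1% with only the 5′ end of each gene, 20.3% with sites of at least 150 bp, 29.8% with the widest HET sites and 37.0% without repeat sites. Lost genes ranged from 1872 to 3191 over these alternatives, within 1.5 times of 2697. On autosomes alone the shares were 8.58%, 4.99% and 39.1%. The causes of these differences were not tested beyond the settings themselves. Without depth, heights or replicates, a site missing from 1 list is a site not called there.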

Other observations

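Several other gene groups had similar numbers of targets in both genotypes, to be read beside 20.1% of all coding genes in WT and 23.4% in HET. Their kept shares are to be read beside the 38.8% over all WT targets. Of 391 zinc finger genes of the Zfp series, most of which encode sequence-specific repressors, 111 were WT targets and 117 HET targets, with 56 kept (17 with an overlapping site), 55 lost and 61 new. Of 55 chromatin remodellers and histone modifiers 17 and 21 were targets and 8 were kept. Oxidative phosphorylation subunits had 25 and 24 targets of 83, with 12 kept, and mitochondrial ribosomal proteins 20 and 22 of 77. Potassium and HCN channels had 11 and 13 of 45, with 3 kept, and BMP and TGF-beta pathway genes 9 and 10 of 35, with 4 kept.

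In other groups the HET count was the higher. Genes of FGF and receptor tyrosine kinase signalling had 7 WT and 12 HET targets of 37, axon guidance genes 9 and 13 of 44, and clustered protocadherins, the adhesion proteins that give neurons their surface identity, 4 and 15 of 56. With sites of at least 150 bp the order turned for FGF signalling (6 and 2) and axon guidance (6 and 0), and within 1 kb also (4 and 3, 5 and 1), while protocadherins had 2 and 4, and 2 and 7. The protocadherin genes share starts and exons, and their 4 WT and 15 HET targets rested on 3 and 12 sites, 1 of them shared. Interneuron markers were rare targets in both, with 3 and 4 of 32.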
